A study of Mus musculus with 3 samples.

Results

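The 9 genes described here belong to the thioredoxin system and the wider antioxidant defence of the cell: Txnip, Txn1, Txnrd1, Prdx1, Prdx2, Gclm, Sod1, Gpx1 and Gpx4. They were chosen by name from the 28692 genes of the deposited matrices, and all 9 were found. Their unique molecular identifiers (UMIs, the molecule counts of droplet sequencing) were read in donor CD4+ T cells recovered from transplanted hearts and from spleens. The recipients were C57BL/6 mice that had been given naive, congenically marked TEa cells, CD4+ T cells whose transgenic receptor sees a BALB/c I-E alpha alloantigen, and then a BALB/c heart. Wild-type (WT) TEa cells were sorted 7 days after transplantation from the graft (1 library) and from the spleen (1 library). A further spleen library held Ldha-/- TEa cells and is not analysed here by gene, because its matrix was used without gene names. The WT genotype is given by the study's design text and not by the 2 libraries' own labels. The age of the mice and the number of animals behind each library are not given in the sources used here. Since each tissue is 1 library, no test was made, and a difference of tissue cannot be told apart from one of library.

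Thioredoxin, encoded by Txn1, reduces disulfide bonds in other proteins and is itself reduced by thioredoxin reductase (Txnrd1) with electrons from NADPH. It keeps the peroxiredoxins Prdx1 and Prdx2 working, and these enzymes remove hydrogen peroxide. The glutathione arm runs beside it: Gclm is the modifier subunit of the enzyme that makes the first intermediate of glutathione, and Gpx1 and Gpx4 are selenium-containing peroxidases that spend glutathione on hydrogen peroxide and on lipid peroxides. Sod1, the copper and zinc superoxide dismutase of the cytosol, makes the hydrogen peroxide that these enzymes then clear. Txnip, an alpha-arrestin, binds and inhibits thioredoxin and restrains glucose uptake. In many cell types Txnip is under glucose-sensing Mondo factors, which bind carbohydrate response elements, and under forkhead FoxO factors, while several of the other genes are known targets of NRF2, which binds antioxidant response elements.

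The upstream sequences are shown because the carbohydrate response element and the forkhead motif were found for Txnip and for none of the other 8 genes. RefSeq promoters on GRCm38.p6 (250 bases before to 50 after a start site) matched all 9 genes with 14 windows in all. On both strands, the carbohydrate response element was searched as 2 CACGNG boxes in the same orientation with 5 bases between them, a forkhead motif as GTAAACA, an antioxidant response element as TGACNNNGC and an E-box as CACGTG, a motif whose letters can fall inside a carbohydrate response element. The carbohydrate response element was found in the Txnip window and in no other member's, against 16 of 32851 windows in the genome (0.0487%). The forkhead motif was likewise in the Txnip window alone, against 3.65% of windows. The 250 bases before the Txnip start (chr3:96557707-96557956, plus strand) are given 5′ to 3′, with the forkhead match, 121 to 115 bases before the start, and the carbohydrate response element match, 85 to 69 bases before it, in capitals. In GENCODE M21 this stretch also lies in an exon of Gm15441, a noncoding gene antisense to Txnip.
Txnip: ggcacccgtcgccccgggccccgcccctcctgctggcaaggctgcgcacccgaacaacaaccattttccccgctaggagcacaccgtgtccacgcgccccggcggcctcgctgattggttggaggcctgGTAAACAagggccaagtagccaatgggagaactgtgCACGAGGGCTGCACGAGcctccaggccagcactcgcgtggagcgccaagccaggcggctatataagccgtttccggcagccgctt

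The antioxidant response element was found for 4 of the 9 genes, Txnrd1, Prdx1, Gclm and Sod1, against 12.4% of all windows and 14.0% of all genes. Each match lay on the strand opposite to the gene, so the capitals below read as the reverse complement of the motif. The stretches are on the plus strand of GRCm38.p6, in the order chr10:82859094-82859142 (inside the Txnrd1 gene, before its second listed start, in no annotated exon), chr4:116685446-116685494, chr3:122245403-122245451 and chr16:90220686-90220734 (each before the gene).
Txnrd1: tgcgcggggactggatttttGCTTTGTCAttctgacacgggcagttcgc
Prdx1: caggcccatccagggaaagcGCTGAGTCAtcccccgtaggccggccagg
Gclm: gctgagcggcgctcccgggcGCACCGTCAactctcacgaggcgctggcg
Sod1: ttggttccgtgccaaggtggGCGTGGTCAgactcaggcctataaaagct
The E-box was in none of the members' windows, against 7.15% of all windows. A match is a description of letters, and the data hold no measure of binding.

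After the limits on barcodes (at least 1000 UMIs, at least 500 genes, at most 10% mitochondrial UMIs) and the removal of 1 myeloid cluster, 3986 heart and 6573 spleen cells were kept, with 42260996 and 56280926 UMIs and medians of 8236 and 7989 UMIs per cell. The 2 libraries shared 6 cell barcodes. T cell markers were present in both (7 of 7 markers, 11374 and 10957 counts scaled per 1000000 UMIs, CPM), and cardiomyocyte markers were near 0 (1 of 5 with a UMI in each library, 0.118 and 0.0178 CPM in sum, Myh6, Tnnt2, Actc1 and Myl2 at 0). The monocyte or macrophage list came to 333 and 211 CPM (10 and 11 of 11 with a UMI, Adgre1 at 0 in heart, Lyz2 at 1.04 and 0.267 CPM). Most of that sum was Ctss (206 and 130 CPM) and Cst3 (119 and 72.6 CPM). Erythroid markers stood apart: their sum was 0.0710 CPM in heart (2 of 6 with a UMI) and 295.9 CPM in spleen (6 of 6), where 2 barcodes held 93.2% of all haemoglobin UMIs. The 20 spleen barcodes and 1 heart barcode with at least 2 haemoglobin UMIs or under 5 T cell marker UMIs are called erythroid-marked below. They matter for Prdx2, Gclm and Gpx1, whose levels in the 20 spleen barcodes were 1456, 316 and 1157 CPM. They matter also for Gpx4, at 673 CPM there against 245 CPM in all spleen cells. The values of these genes that they move are given with and without them.

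Of the 9 genes, 7 were higher in graft than in spleen cells, as were 53.5% of the 2706 genes of at least 50 CPM. Txnip and Gpx1 were lower. Gclm was level within counting error, and the share of all genes level in that sense is not given here. Of the members of at least 50 CPM, 5 of 7 were higher. Only Txn1 passed a 2-fold difference: 1 member was at least 2-fold higher, where 11.8% of the 2706 genes were, and 0 members were at least 2-fold lower, where 4.84% of those genes were. In either direction 16.6% of the 2706 genes passed 2-fold. At 1.5-fold 2 members were higher (Txn1 and Prdx2), beside 19.7% of the genes, and 1 was lower (Gpx1), beside 13.7%, with 33.3% of the genes past it either way. The median log2 ratio of heart over spleen was 0.40 over the 9 members and 0.05 over the 2706 genes. Of the members, 7 reached 50 CPM. Txnrd1 and Gclm did not, but are described all the same. Together the 9 genes took 0.232% of heart UMIs and 0.150% of spleen UMIs. Log2 ratios are of (CPM + 1), and every CPM carries its exact 95% Poisson interval. Shares of cells, and folds between libraries, carry exact 95% binomial (Clopper-Pearson) intervals. These intervals cover counting error only. A level of summed cells does not separate fewer expressing cells from less RNA per cell, and 3′ UMI counts are not scaled by length, so levels are compared between samples and not between genes.

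**Figure D1:**
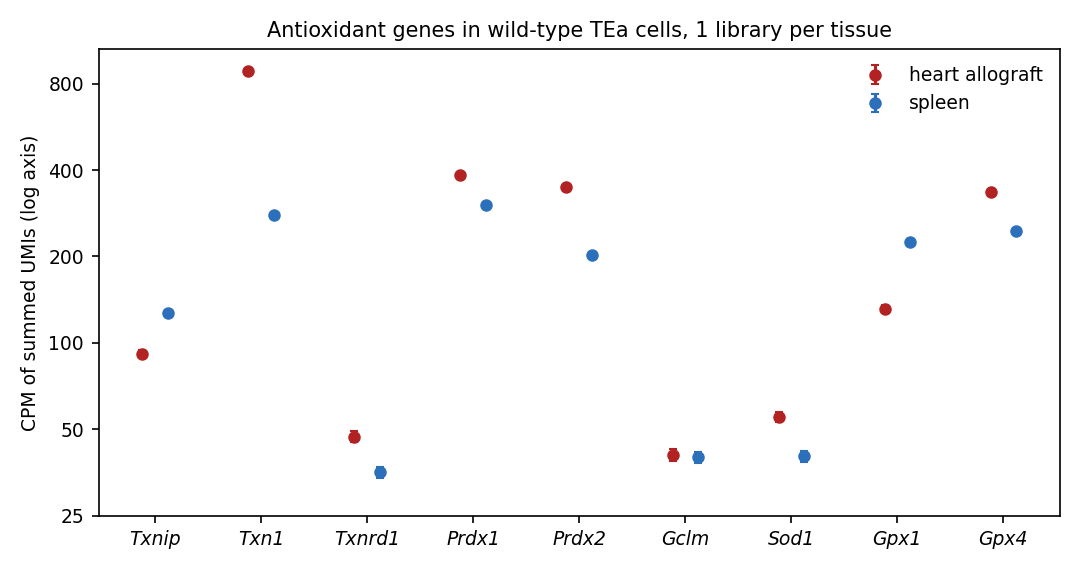
Level of each gene in WT TEa cells of the heart allograft (red) and the spleen (blue), as CPM of summed UMIs on a log axis, with exact 95% Poisson intervals that are mostly smaller than the points. Txn1 shows the widest gap, 886 against 280 CPM, and only Txnip and Gpx1 have the spleen point on top.

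Txnip (ENSMUSG00000038393, GRCm38 chromosome 3, 96557957 to 96561883) was lower in the graft. Its level was 91.8 CPM in heart (88.9 to 94.7, 3880 UMIs) and 127 CPM in spleen (124 to 130.0, 7149 UMIs). The spleen level was 1.38 times the heart level (1.33 to 1.44), a log2 ratio of -0.46. That ratio lay at percentile 18.1 of the 2706 genes. The antisense gene Gm15441, which covers the whole Txnip locus, was at 0.876 and 0.977 CPM.

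Txn1 (ENSMUSG00000028367, chromosome 4, 57943373 to 57956411, minus strand), the thioredoxin that Txnip inhibits, differed the other way. Heart cells held 886 CPM (877 to 895, 37443 UMIs) and spleen cells 280 CPM (276 to 284, 15751 UMIs), which is 3.17-fold higher in the graft (3.11 to 3.23), a log2 ratio of 1.66. This placed it at percentile 94.0 of the 2706 genes. For each Txnip UMI there were 9.65 Txn1 UMIs in heart and 2.20 in spleen, so the balance of the pair differed 4.38-fold between the libraries.

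Txnrd1 (ENSMUSG00000020250, chromosome 10, 82833951 to 82897712), which recharges thioredoxin, differed far less than its substrate. Its level was 47.1 CPM (45.1 to 49.2) in the graft and 35.4 CPM (33.9 to 37.0) in spleen, a 1.33-fold difference (1.25 to 1.42, log2 0.40). The mitochondrial thioredoxin Txn2, listed with the wider genes, was level at 98.0 and 97.6 CPM.

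The 2 peroxiredoxins were both higher in the graft. Prdx1 (ENSMUSG00000028691, chromosome 4, 116685544 to 116700822) measured 386 CPM (379.9 to 392) in the graft and 301 CPM (296 to 306) in spleen, 1.28-fold (1.25 to 1.31, log2 0.36). Prdx2 (ENSMUSG00000005161, chromosome 8, 84969587 to 84974834) measured 350.4 CPM (345 to 356) and 202 CPM (198 to 206), 1.73-fold (1.69 to 1.78, log2 0.79), the second highest ratio of the 9 genes and percentile 84.7 of the 2706. Without the erythroid-marked barcodes its log2 ratio was 0.84. Prdx2 shares 351 bases at its locus with Junb, a gene on the other strand that was at 1377 CPM in heart against 138 CPM in spleen. The strand setting of the counting is not given in the sources used here, and the part of Junb reads in the Prdx2 value was not tested.

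Gclm (ENSMUSG00000028124, chromosome 3, 122245557 to 122270732) was the only member whose interval of the ratio included equal levels. Graft cells held 40.6 CPM (38.7 to 42.5) and spleen cells 39.9 CPM (38.3 to 41.6), a fold of 1.02 (0.954 to 1.08, log2 0.02, or 0.075 without the erythroid-marked barcodes). Sod1 (ENSMUSG00000022982, chromosome 16, 90220754 to 90226329) was 1.38-fold higher in heart (1.30 to 1.46, log2 0.45), with 55.3 CPM (53.1 to 57.6) against 40.2 CPM (38.6 to 41.9). It shares 650 bases with Scaf4 on the other strand, which was at 14.98 and 20.7 CPM.

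The 2 glutathione peroxidases parted. Gpx1 (ENSMUSG00000063856, chromosome 9, 108338903 to 108340343) was lower in the graft, with 132 CPM (128 to 135) against 225 CPM (222 to 229) in spleen. The spleen level was 1.71 times the heart level (1.66 to 1.77), a log2 ratio of -0.77 at percentile 8.65 of the 2706 genes, the lowest ratio among the 9. Without the erythroid-marked barcodes it was -0.74. Gpx4 (ENSMUSG00000075706, chromosome 10, 80047166 to 80056439), the peroxidase that protects membranes from lipid peroxides, was 1.36-fold higher in heart (1.33 to 1.40, log2 0.45), with 334 CPM (329 to 339.8) against 245 CPM (241 to 249). All 9 genes are annotated as protein-coding. GENCODE M21 names a pseudogene of Txn1 (Txn-ps1) and of Gpx4 (Gpx4-ps2), and the counting of reads shared with such copies is not described.

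The totals to which counts are scaled bear on the small differences. Ribosomal protein genes took 29.8% of heart and 35.2% of spleen UMIs. With totals that leave out mitochondrial, ribosomal protein and Malat1 UMIs, the median of all genes shifted by -0.17 on the log2 scale and Gclm changed sign, to -0.14. The other 8 kept their direction, with Txn1 at 1.49, Prdx2 at 0.62, Txnip at -0.63 and Gpx1 at -0.94.

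The differences of Txn1, Prdx2 and Gpx1 ran through much of the cell population. With every cell thinned to 1000 UMIs, 49.4% of heart cells (47.9 to 51.0) and 21.1% of spleen cells (20.1 to 22.1) had a Txn1 UMI, and without thinning the shares were 96.3% and 81.9%. Thinned to 3000 UMIs, which left out 33 heart and 34 spleen cells, 83.6% and 50.3% had one, and at least 5 Txn1 UMIs were found in 11.5% of heart cells and 0.811% of spleen cells. By CPM per cell, 88.7% of heart cells lay above the spleen median for Txn1 and 5.99% of spleen cells lay above the heart median.

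For Gpx1 the order was turned round. A UMI was present in 11.8% of heart cells (10.9 to 12.9) and 18.7% of spleen cells (17.7 to 19.6) at 1000 UMIs, and in 61.4% and 78.9% without thinning. Spleen cells lay above the heart median in 74.9% of cases, and heart cells above the spleen median in 27.9%. Txnip overlapped more: 9.28% of heart cells (8.40 to 10.2) and 12.2% of spleen cells (11.4 to 13.0) had a UMI at 1000 UMIs, 51.0% and 58.0% without thinning.

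Among the other genes, Prdx2 was seen in 27.7% of thinned heart cells and 18.0% of thinned spleen cells (89.3% and 78.0% unthinned), and 78.1% of heart cells lay above the spleen median against 20.2% of spleen cells above the heart median. The thinned shares of Prdx1 were 27.8% and 25.5%, and those of Gpx4 26.7% and 21.4%. Prdx1 was the 1 member whose unthinned share ran against its CPM, at 85.4% in heart and 86.7% in spleen. Gclm was found in 3.69% and 3.67% of thinned cells, Txnrd1 in 5.17% and 3.23%, and Sod1 in 5.62% and 4.02%. Barcodes of 1 to 100 UMIs, which hold mostly free RNA, carried all 9 genes at 0.783 to 1.28 times their level in cells of the same library. Txn1, for example, was at 731 CPM in such heart barcodes and 257 CPM in such spleen barcodes, so a single UMI in a cell does not show that the cell expresses the gene, and no cell type that should lack these genes was at hand for a background share.

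**Figure D2:**
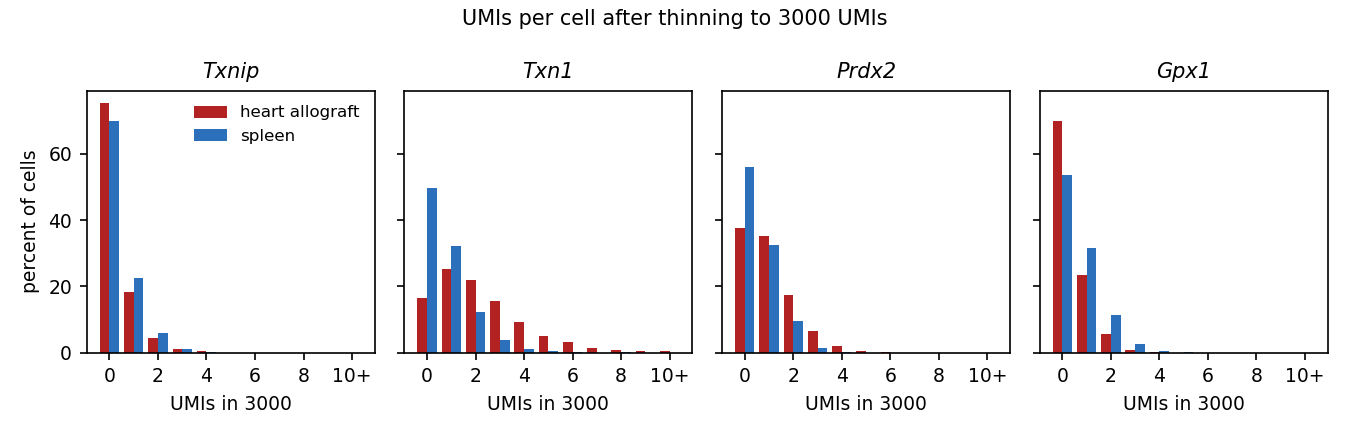
Percent of cells (vertical axis) by number of UMIs of Txnip, Txn1, Prdx2 and Gpx1 (horizontal axis) after each cell was thinned to 3000 UMIs, for the heart allograft (red) and the spleen (blue). The share of cells with no Txn1 UMI was 16.4% in heart and 49.7% in spleen, and the heart distribution reaches further to the right.

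Clustering without any redox gene gave 8 clusters of kept cells, 3 almost wholly from the heart library and 5 almost wholly from the spleen library, so a cluster and its library cannot be told apart. Heart cluster 1 (2673 cells) was led by Calca, Itgae, Osgin1, Camk2n1, Crem, Il17a and Cxcr6, with 7 of 11 Th1 or effector markers raised. Heart cluster 4 (652 cells, median 18718 UMIs) had 10 of 10 cycling markers raised, and heart cluster 5 (639 cells) was led by Esm1, Acsl3 and Rragd. In spleen, cluster 0 (2848 cells) was led by Dapl1 and Klf2. Cluster 2 (2464 cells) had 5 of 7 follicular helper markers raised, and cluster 3 (1044 cells) had 6 of 11 Th1 or effector markers. Haemoglobin genes were also among the 10 leading genes of spleen clusters 2 and 3, and the NK cell receptor genes Klra7 and Ncr1 among those of cluster 3. Cluster 6 (119 cells) had 7 of 7 interferon response markers. Cluster 7 (98 cells, unnamed) had 10 of 10 cycling markers raised but was led by the erythroid genes Car1, Car2 and Klf1, and 7 of its barcodes, with 10.5% of its UMIs, were erythroid-marked.

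Txn1 spanned 6.52-fold over the 8 clusters, the widest range of the 9 genes. From the highest, the levels were 1329 CPM in heart cluster 4, 912 in spleen cluster 7, 715 in heart cluster 1, 492 in heart cluster 5, 476 in spleen cluster 3, 252 in spleen cluster 6, 216 in spleen cluster 0 and 204 in spleen cluster 2. The intervals of heart cluster 5 and spleen cluster 3 overlapped (473 to 511 and 463 to 490.5), and so did those of spleen clusters 6 and 0. The libraries therefore overlapped: the lowest heart cluster was close to the spleen cluster with raised effector markers and below the spleen cluster with raised cycling markers.

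The 2 clusters highest for Txn1 were the lowest for Txnip. Txnip was highest in spleen cluster 3 (174 CPM) and spleen cluster 0 (145 CPM), followed by spleen cluster 6 (126), heart cluster 1 (113), heart cluster 5 (101), spleen cluster 2 (89.6), spleen cluster 7 (65.7) and heart cluster 4 (52.3). Spleen cluster 6, with 126 Txnip UMIs, overlapped in its interval (105 to 150.5) with clusters above and below it. Txn1 UMIs per Txnip UMI ran from 1.49 in spleen cluster 0 to 25.4 in heart cluster 4, and were 13.9 in spleen cluster 7. The value was 6.34 in heart cluster 1 and 2.74 in spleen cluster 3.

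Gpx1 was the 1 member whose heart and spleen clusters did not overlap, against 26.9% of the 2706 genes. Its heart levels were 122, 138 and 155 CPM in clusters 1, 4 and 5, and its spleen levels lay between 187 CPM (cluster 6) and 282 CPM (cluster 7). Without the 7 erythroid-marked barcodes cluster 7 measured 155 CPM, level with heart cluster 5, and the separation was lost. Prdx2 showed the opposite dependence. It was flat over the heart clusters, between 344 and 356 CPM, and ran from 177 to 251 CPM in spleen clusters 0, 2, 3 and 6, while spleen cluster 7 measured 436 CPM with those barcodes and 240.4 CPM without them.

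The remaining genes overlapped between the libraries' clusters. Prdx1 was highest in the 2 clusters with raised cycling markers, at 542 CPM in heart cluster 4 and 578 in spleen cluster 7, and 270 to 361 CPM elsewhere. Gpx4 followed the same order at the top, with 381 and 390.2 CPM in those clusters against 216 to 323 CPM in the others. Without the erythroid-marked barcodes Gpx4 in spleen cluster 7 was at 327 CPM, below heart cluster 4 and close to heart cluster 1 (323 CPM). Gclm was 55.6 CPM in heart cluster 4 and 97.2 in spleen cluster 7 (56.7 without the erythroid-marked barcodes), against 29.7 to 44.6 CPM elsewhere. Sod1 ranged from 38.5 to 68.3 CPM and Txnrd1 from 22.1 to 50.7 CPM. Over the 8 clusters, which share 2 libraries and differ in depth and cell number, Pearson's r of the log2 levels was 0.86 for Txn1 with Prdx1 (0.84 without the erythroid-marked barcodes) and -0.63 for Txnip with Txn1 (-0.62), given as a description. For Txn1 it was 0.91 with Prdx2 and -0.36 with Gpx1, and without those barcodes 0.80 and -0.78.

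**Figure D3:**
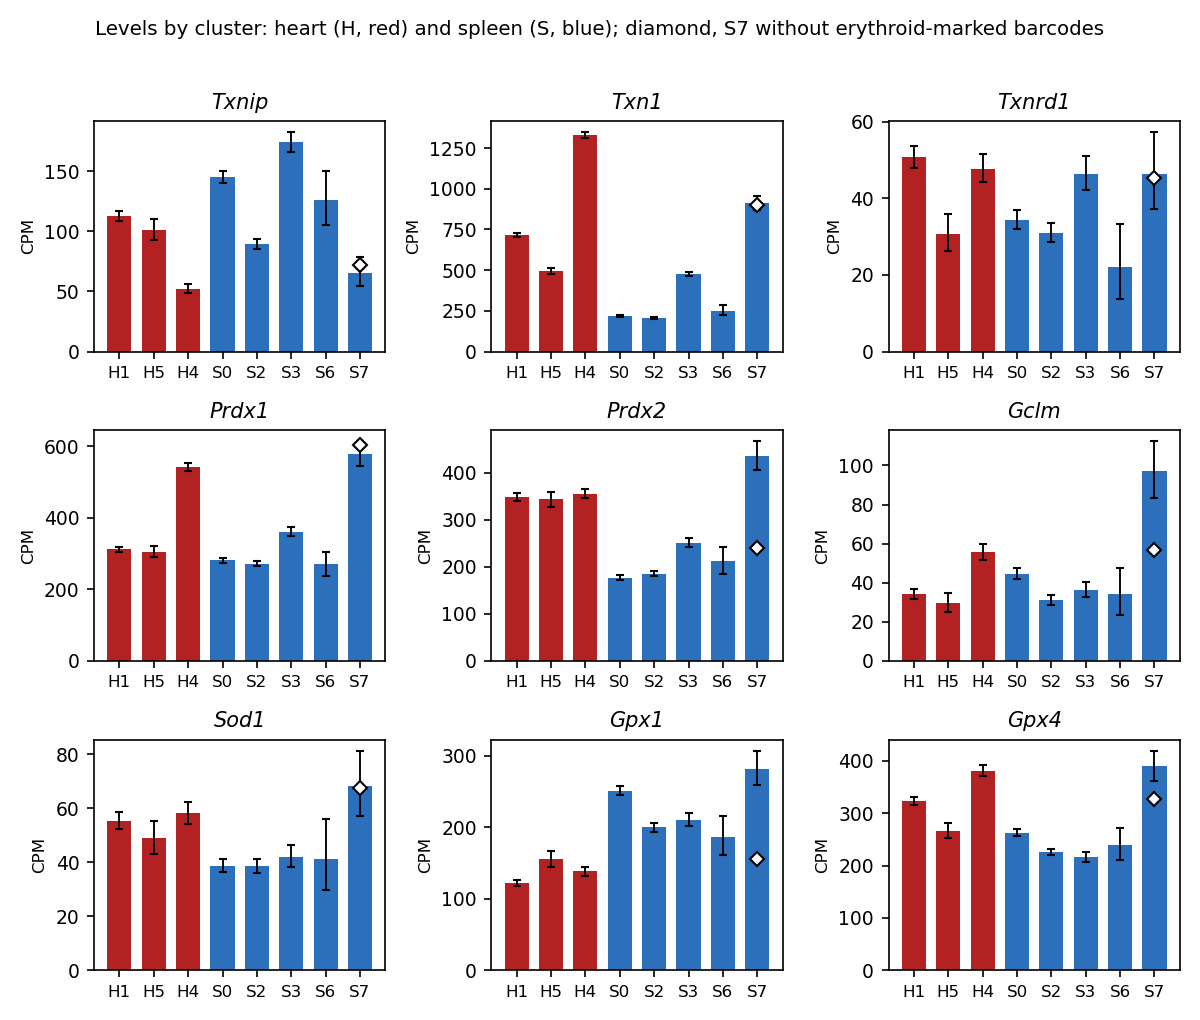
Level of each gene (CPM, linear axis from 0) in the 3 heart clusters (H, red) and 5 spleen clusters (S, blue), numbered as in the text, with exact 95% Poisson intervals. Diamonds give spleen cluster 7 without 7 erythroid-marked barcodes, where Prdx2 is 240.4 in place of 436 CPM and Gpx1 155 in place of 282 CPM.

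Single clusters were then set side by side across the tissues. Heart cluster 1 and spleen cluster 3, the clusters with most Th1 or effector markers raised in each library (a pair chosen after their values were seen), held 0 members past 2-fold, where 10.6% of 2720 genes were higher and 5.74% lower in heart. The pair was not alike as a whole: 16.4% of those genes passed 2-fold, close to the 16.6% between the libraries, and heart cluster 1 also had 3 of 5 regulatory T cell markers raised. Txn1 was 715 against 476 CPM, a log2 ratio of 0.58 in place of 1.66 in all cells. Txnip was 113 against 174 CPM (-0.62) and Gpx1 122 against 210 CPM (-0.78), both as far apart as in all cells or further. Prdx1 changed sign to -0.21, while Gpx4 was at 0.58 and Prdx2 at 0.47. Without the 2 erythroid-marked barcodes of spleen cluster 3, Prdx2 was at 0.47 and Gpx1 at -0.78.

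Cells with at least 2 UMIs of 10 cycling markers, after thinning to 1000 UMIs, made up 9.76% of heart cells (389, median 19420 UMIs) and 2.31% of spleen cells (152, median 14518 UMIs). In heart, 0 members were 2-fold higher or lower in cycling than in other cells, where 8.51% and 1.35% of 2668 genes were. In spleen 3 members were 2-fold higher, Txn1, Prdx2 and Gclm, where 14.7% of 2849 genes were, and 0 were 2-fold lower, where 2.98% were. Without the 6 erythroid-marked barcodes of the spleen class only Txn1 was left, against 14% of 2814 genes, and 0 members were 2-fold lower, against 2.56%.

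Txn1 measured 1286 CPM in cycling and 791 CPM in other heart cells, and 890.5 CPM in cycling and 251 CPM in other spleen cells. The fold was 1.63 (1.59 to 1.66) in heart and 3.55 (3.39 to 3.71) in spleen. Txnip was lower in the cycling class of both libraries, at 56.5 against 100.2 CPM in heart and 74.8 against 129.5 CPM in spleen. Prdx1 was higher in both, at 533 against 351 CPM in heart and 542 against 289.5 CPM in spleen. For Prdx2 the libraries differed, with 336 against 354 CPM in heart and 388 against 193 CPM in spleen, and the spleen cycling value without the erythroid-marked barcodes was 249 CPM. Gpx1 was 132 CPM in both heart classes, and in spleen it was 254 against 224 CPM with those barcodes and 167 against 223 CPM without them.

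Between the tissues, 0 members passed 2-fold within the cycling class, where 6.34% of 2855 genes were higher and 4.34% lower in heart. Txn1 was the highest of the 9 there, with a log2 ratio of 0.53, and Gpx1 the lowest, at -0.94 (-0.33 without the erythroid-marked barcodes). Gclm was at -0.55 with those barcodes and 0.090 without them. Without those barcodes, too, 0 members passed 2-fold, where 6.27% of 2822 genes were higher and 4.82% lower. Prdx1 was then at -0.065, Txnrd1 at -0.11, Sod1 at -0.17, Txnip at -0.47, Prdx2 at 0.43 and Gpx4 at 0.39. With those barcodes Prdx2 was at -0.21 and Gpx4 at 0.19. Outside the cycling class Txn1 was again the 1 member past 2-fold (log2 1.65, 791 against 251 CPM), where 12.2% of 2690 genes were higher, and 0 members were lower, where 5.35% were. The Txn1 difference of all cells was thus as large outside the cycling class as defined here, and smaller within it. The heart class is smaller than heart cluster 4 (652 cells), which had raised cycling markers, so some cells of that cluster lay outside the class. Txn1 was at 672 CPM in heart cells outside cluster 4 and at 258 CPM in spleen cells outside cluster 7. That gap is narrower than 791 against 251 CPM. The part of cycling cells in the difference of all cells was not tested.

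**Figure D4:**
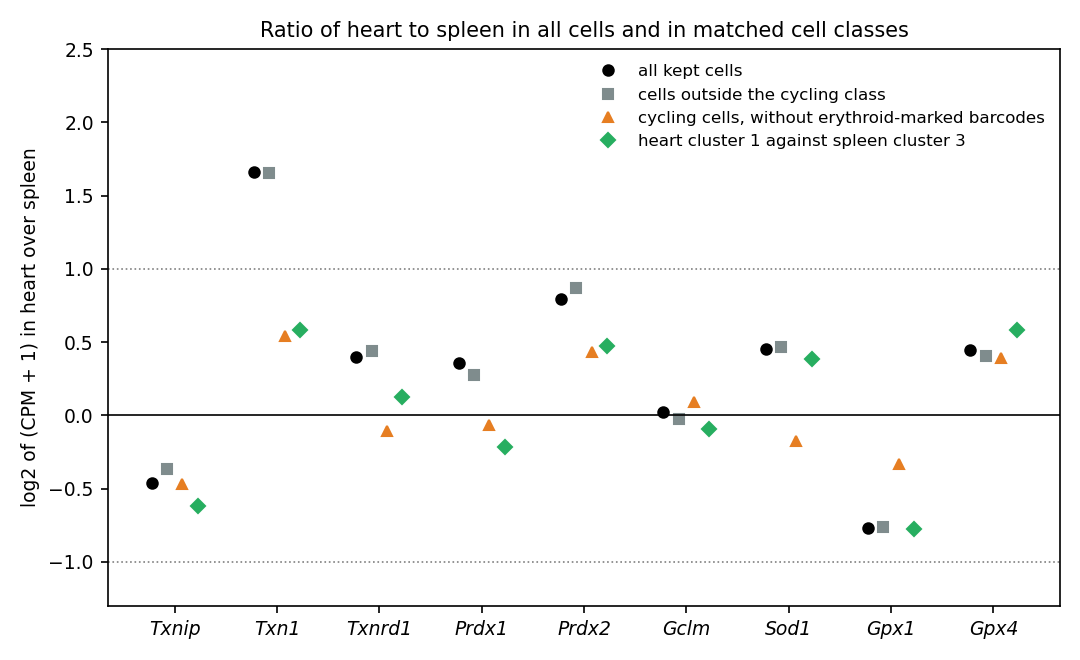
Log2 ratio of heart over spleen (vertical axis) for each gene in all kept cells (black), cells outside the cycling class (grey), cycling cells without erythroid-marked barcodes (orange) and heart cluster 1 against spleen cluster 3 (green), with dotted lines at 2-fold. Txn1 is at 1.66 and 1.65 in the black and grey points and at 0.54 and 0.58 in the orange and green ones, whereas Txnip lies between -0.62 and -0.37.

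The genes whose levels ran most like those of 3 members over the 8 clusters were found by Pearson's r of log2 (CPM + 1). They are the 3 highest among the eligible genes over only 8 clusters, so the search itself favoured a high r. For Txnip they were Zfand6 (r 0.95), Sepp1, also called Selenop, the secreted selenium carrier (0.95), and Vsir, an inhibitory receptor of T cells (0.95). For Txn1 they were Ywhae, a 14-3-3 protein (0.99), Vdac2, a channel of the outer mitochondrial membrane (0.99), and Cox6c, a subunit of cytochrome oxidase (0.98). Their log2 ratios of heart over spleen were 0.98, 0.56 and 0.37, against 1.66 for Txn1. For Prdx1 they were Tyms, the thymidylate synthase (0.99), Dazap1 (0.99) and Hmgb2, a chromatin protein (0.99). Tyms is itself 1 of the 10 cycling markers.

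Around the 9 genes, 11 lists of other redox genes held 121 names, of which 120 were matched and 42 reached 50 CPM. Past 2-fold, 6 of those 42 were higher in heart and 0 lower, beside 11.8% and 4.84% of all 2706 genes, and the median log2 ratio was 0.13. The 6 fell into 3 lists. In cystine import and glutathione (5 genes at 50 CPM, 2 higher), Slc3a2, the heavy chain of the cystine and amino acid transporters, was at 378 and 61.1 CPM (log2 2.61). Its cystine partner chain Slc7a11, named after its value was seen, had 1 UMI in each library. Glrx, a glutaredoxin that undoes glutathione adducts, was at 278 and 70.1 CPM (1.97).

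The NRF2 pathway, haem and iron list named 17 genes, of which 5 reached 50 CPM and 3 of these were past 2-fold higher. Mafg, a DNA-binding partner of NRF2, was at 60.9 and 17.5 CPM (1.74). Sqstm1, which ties NRF2 to autophagy, was at 105 and 32.2 CPM (1.68). The ferritin heavy chain Fth1 was at 3449 and 1150 CPM (1.58). Nfe2l2, the gene of NRF2 itself, was below 50 CPM in both libraries. Among the peroxiredoxins and sulfiredoxin (4 genes, 1 higher), Prdx6 was at 446 and 138 CPM (1.68), while Prdx3, the mitochondrial one, was at 43.3 and 57.9 CPM (-0.41). Prdx6 was thus further apart between the tissues than Prdx1 or Prdx2.

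In the other lists no gene of at least 50 CPM passed 2-fold. Among the 7 thioredoxin relatives at that level the widest difference was that of Txnl1 (159 and 104 CPM, log2 0.61). The copper chaperone of Sod1, Ccs, was lower in heart (43.8 and 68.7 CPM, -0.64) although Sod1 was higher, and the mitochondrial dismutase Sod2 was at 88.7 and 80.6 CPM (0.14). Of 7 other selenoproteins, 3 were higher and 4 lower, with Selenoh at 205 and 104 CPM (0.98). The NADPH supply list (5 genes, 3 higher, 2 lower) was led by Tkt of the pentose phosphate pathway (148 and 96.5 CPM, 0.61). Mgst2, a microsomal glutathione transferase, was at 40.2 and 64.0 CPM (-0.66). For superoxide production, 2 of 3 genes were higher, with Ncf4, a subunit of the NADPH oxidase, at 95.4 and 60.8 CPM (0.64). The alpha-arrestins besides Txnip, the Mondo factors and 2 glucose transporters, 10 genes, all stayed below 50 CPM, and so did the 6 reductases of thioredoxin and methionine sulfoxide other than Txnrd1.

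**Figure D5:**
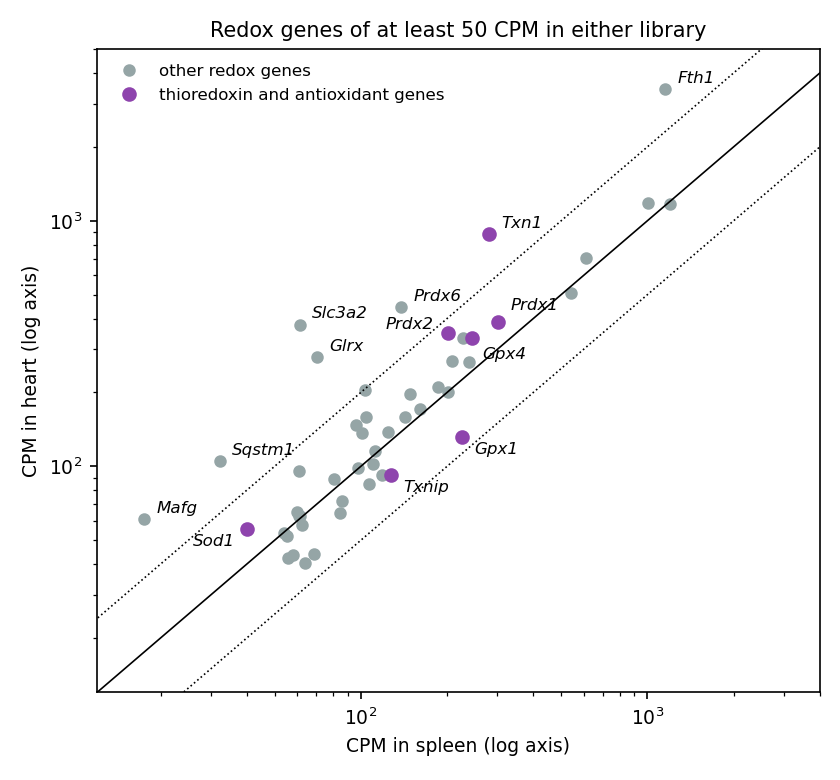
Level in heart (vertical) against spleen (horizontal), both CPM on log axes, of the 7 members (purple) and 42 other redox genes (grey) of at least 50 CPM in either library, with the line of equal levels and dotted lines at 2-fold. Slc3a2, Glrx, Mafg, Prdx6, Sqstm1, Fth1 and Txn1 lie above the upper dotted line, and no gene lies below the lower one.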

How the data were processed

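Droplet-based 3′ libraries of sorted TEa cells were deposited as matrices of unnormalized UMI counts. Both WT matrices come from Cell Ranger 3.0.2, per the file headers. Seurat 4.0.0, mm10 and another Cell Ranger, 7.0.0, are named in the submitters' processing notes. The labels' protocol speaks of a nuclei suspension although sorted cells are named as the source, and whether intronic reads were counted is not given in the sources used here.

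Each WT matrix lists 6794880 barcodes. Those with at least 1000 UMIs, 500 genes and at most 10% mitochondrial UMIs were clustered together with scanpy 1.11.5 (2000 variable genes, 30 principal components, 15 neighbours) and leidenalg 0.10.2 at resolution 0.6, without the redox, receptor, mitochondrial, ribosomal protein and sex-linked genes. Of 9 clusters, 1 (86 heart and 10 spleen barcodes) was removed because the monocyte or macrophage markers there outweighed the T cell markers. Scrublet marked 2 heart and 0 spleen barcodes, too few to have worked, so doublets can remain. Counts were summed over kept cells per library and scaled to CPM, and a count of 0, which allows 3 counts, limits a gene to 0.0710 CPM in heart and 0.0533 CPM in spleen. Genes of at least 50 CPM in either library formed the background. Functions were tested on simulated data. Named genes were the 9 members, up to 4 genes per redox list with the largest ratio, Hbb-bs and Lyz2 as markers of other cells (Hbb-bs: 0 and 175.5 CPM), and 3 look-alike genes each for Txnip, Txn1 and Prdx1. Cluster-leading genes, Gm15441, Junb, Scaf4, Txn2, Ctss, Cst3 and Nfe2l2 were named after their values were seen. Positions are from GENCODE M21. The members and lists were chosen with earlier results of these data known. Alternatives were other totals, depths, limits, cell classes, a pseudocount of 0.1 CPM and a 5% free RNA share.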

Additional observations from a re-analysis of the deposited data

Results flagged for a closer look

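Prdx2 moved in opposite directions between the tissues when cycling cells were set against other cells of the same library. The log2 ratio of cycling over other cells was -0.076 in heart and 1.002 in spleen. With 1 library per tissue the difference was not tested. Without the erythroid-marked barcodes (1 of the heart and 6 of the spleen cycling class, the latter with 7.53% of that class's UMIs) the ratios were -0.074 and 0.37. All 20 such barcodes of the spleen held 433 Prdx2 UMIs, 3.81% of the gene's spleen total.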

How the results depend on the processing

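No paired analysis was possible because each group holds 1 library. Over 13 planned settings the log2 ratio of Txn1 ran from 0.53 to 1.72, past 2-fold in 12 of them, that of Txnip from -0.63 to -0.21, that of Gpx1 from -0.94 to -0.51 and that of Gpx4 from 0.19 to 0.46, all 4 without a change of sign. Txnrd1, Prdx1, Prdx2 and Sod1 changed sign in the cycling class alone, at -0.13, -0.02, -0.21 and -0.19, and Gclm kept its sign in 6 of 13. For Prdx2 that change was lost without the erythroid-marked barcodes, where its ratio in the cycling class was 0.43. Of 117 member ratios under these settings, 65 stayed within the counting interval and 52 moved beyond it. With totals free of mitochondrial, ribosomal protein and Malat1 UMIs the members' median was 0.24 and 696 of all genes passed 2-fold, against 449. In the cycling class 0 members were 2-fold higher and the median was -0.19. Alternatives chosen after seeing the data gave 0 and -0.065 for that class without erythroid-marked barcodes, and 0 and 0.12 for heart cluster 1 against spleen cluster 3. At 1.5-fold 2 members were higher (Txn1 and Prdx2), 1 was lower (Gpx1) and 902 genes passed, and with a floor of 1 CPM 2037 genes passed 2-fold. With the floor of 50 CPM 7 members were left, and their median was 0.45, against 0.40 over all 9. The cause of these shifts was not tested. Counting error was small beside the larger differences, but the intervals cover nothing else, and the spread between animals is unknown. The ratios also moved with a limit on depth per cell. In cells of 5000 to 10000 UMIs they were -0.21 for Txnip, 1.41 for Txn1, 0.07 for Prdx1, 0.33 for Gpx4 and -0.28 for Gclm. In all cells these were -0.46, 1.66, 0.36, 0.45 and 0.02. Gpx1 (-0.85), Prdx2 (0.83), Txnrd1 (0.56) and Sod1 (0.48) were each wider apart at that depth than in all cells.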

Other observations

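The myeloid cluster that was removed before the comparison differed from the kept cells in several of the 9 genes. Its 86 heart barcodes held Prdx1 at 1348 CPM, Gpx1 at 623.5 CPM, Txn1 at 1571 CPM and Txnrd1 at 118 CPM, against 386, 132, 886 and 47.1 CPM in the kept heart cells. Txnip, at 111 CPM there and 91.8 CPM in the kept cells, and Prdx2, at 327 and 350.4 CPM, were closer. With these barcodes left in, the log2 ratio of heart over spleen was -0.51 for Gpx1, 0.54 for Prdx1 and 1.72 for Txn1.

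Among the 15 genes with the carbohydrate response element in a promoter window, Txnip was lower in heart (91.8 against 127 CPM). A430005L14Rik (18.4 against 36.6 CPM) and Man2b2 (5.40 against 6.49 CPM) were lower too. Rbbp4 (143 against 120.3 CPM), Rbmxl1 (79.9 against 70.1 CPM) and Nfkb2, a subunit of NF-kappa B (49.5 against 15.3 CPM), were higher. So were Fem1b, Fnip1 and Irak1bp1. Only Txnip, Rbbp4 and Rbmxl1 reached 50 CPM in either library, and the genes not named here did not reach 1 CPM. The genes besides Txnip were named after their values were seen.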
